A study of Mus musculus with 12 samples.

Results

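The genes described here are 10 components of the feedback layer of Wnt signaling, namely *Nkd1*, *Nkd2*, *Kremen1*, *Kremen2*, *Znrf3*, *Rnf43*, *Notum*, *Apcdd1*, *Sp5* and *Lgr5*. They were taken by name from the 41444 genes of the expression table, and all 10 were found in it. Their mRNA levels were measured by RNA-seq in mouse B-ALL cells, which were bone marrow pre-B cells expanded with IL-7 and transformed with the *BCR*–*ABL1* oncogene by retrovirus, after which IL-7 was withdrawn. All cells carried *Ctnnb1* fl/fl, that is, floxed alleles of the gene for β-catenin. The 3 control samples and the 3 treated samples compared here carried the ERT2 vector, which has no Cre and leaves β-catenin intact. Both groups received 1 μM 4-OHT, the tamoxifen metabolite that activates Cre-ERT2, for 2 days. The treated group also received 40 nM LY2090314, a small-molecule inhibitor of GSK3, for 1 day per the labels, although a legend of the study gives a shorter exposure. The Cre-ERT2 groups are not analysed here, because the names of the remaining columns could not be assigned to groups. The study counts 3 mice as biological replicates. However, a pair of treated columns, called 14A and 14B after their column names, begin with the same number. The third treated column is 15. The labels do not say what this leading number stands for. The control columns are numbered 1, 2 and 3. The comparison asks how mRNA levels change when GSK3 is inhibited in cells that can accumulate β-catenin.

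When Wnt ligands engage Frizzled receptors and the co-receptors Lrp5 and Lrp6, or when GSK3 is inhibited, β-catenin escapes phosphorylation and degradation, enters the nucleus and binds TCF/LEF factors at target genes. Several targets encode proteins that dampen the pathway again. Naked proteins (*Nkd1*, *Nkd2*) bind Dishevelled in the cytoplasm, Kremen proteins bind the secreted antagonists of the Dickkopf family together with Lrp5 and Lrp6, and the transmembrane ubiquitin ligases Znrf3 and Rnf43 remove Frizzled from the cell surface. Notum is a secreted enzyme that strips the lipid from Wnt ligands, Apcdd1 is a membrane glycoprotein that binds Wnt and Lrp5, and Sp5 is a zinc-finger transcription factor induced by β-catenin. Lgr5 differs from the others, since it is a receptor for R-spondins, secreted proteins that block Znrf3 and Rnf43 and so enhance Wnt signaling.

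In ERT2 cells, LY2090314 raised *Nkd1*, *Kremen1*, *Znrf3*, *Nkd2* and *Apcdd1* and lowered *Lgr5*. The rises ranged from 1.76-fold for *Apcdd1* to 43.5-fold for *Nkd1*, and *Lgr5* was 2.72-fold lower. *Sp5*, *Rnf43*, *Kremen2* and *Notum* were near the bottom of the measured scale in both groups. Values are given on the rlog scale of DESeq2, a log2 scale corrected for library size on which weakly expressed genes are drawn to their own average, so that their fold changes are understated. Genes with a mean rlog value of at least 3 over the 6 samples were tested with limma, which left 11536 genes and 6 of the 10 members. For each of these 6, the mean was above this limit in the control as well as in the treated group. In bulk RNA, fewer cells of a type and less RNA per cell cannot be told apart.

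**Figure D1:**
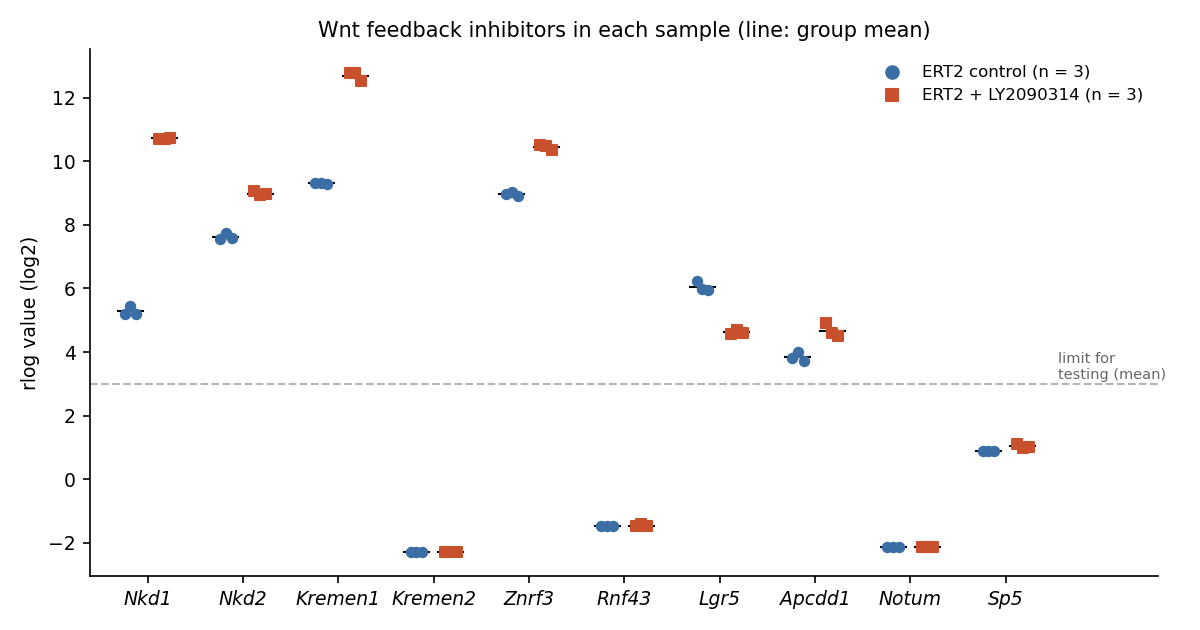
rlog values (log2 scale, vertical axis) of the 10 genes in 3 control samples (circles) and 3 LY2090314-treated samples (squares), with the group mean as a line and the limit of 3 on the mean as a dashed line. Treated samples lie above the controls for *Nkd1*, *Nkd2*, *Kremen1*, *Znrf3* and *Apcdd1* and below them for *Lgr5*, while *Kremen2*, *Rnf43*, *Notum* and *Sp5* stay under the limit.

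Promoter sequences of the reference table (RefSeq, GRCm38.p6) were available for 5 of the 10 genes, *Nkd1*, *Nkd2*, *Kremen2*, *Rnf43* and *Sp5*. The sequences of *Nkd1* and *Nkd2* are shown because these related genes rose to different extents, and that of *Sp5* because it alone among the 6 windows, which include 2 starts of *Rnf43*, held the letters searched for TCF/LEF. Each line gives the 250 bases before the annotated start, 5′ to 3′ on the strand of the gene. Capitals mark matches, on either strand, to the word CTTTGAA and its variants with other last letters, namely the word CTTTGAT, then the word CTTTGTA and finally the word CTTTGTT.
*Nkd1*, chr8:88527383-88527632, plus strand: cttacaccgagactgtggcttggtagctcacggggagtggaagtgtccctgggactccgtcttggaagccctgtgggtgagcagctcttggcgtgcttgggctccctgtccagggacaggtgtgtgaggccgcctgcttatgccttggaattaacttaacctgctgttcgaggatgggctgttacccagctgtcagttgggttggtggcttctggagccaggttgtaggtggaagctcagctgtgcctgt
*Nkd2*, chr13:73847632-73847881, minus strand: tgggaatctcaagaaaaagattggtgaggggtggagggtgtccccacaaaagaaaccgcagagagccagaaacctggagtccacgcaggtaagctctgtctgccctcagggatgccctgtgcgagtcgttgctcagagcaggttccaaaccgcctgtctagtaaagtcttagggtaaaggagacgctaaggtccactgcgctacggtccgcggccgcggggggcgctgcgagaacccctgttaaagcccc
*Sp5*, chr2:70474673-70474922, plus strand: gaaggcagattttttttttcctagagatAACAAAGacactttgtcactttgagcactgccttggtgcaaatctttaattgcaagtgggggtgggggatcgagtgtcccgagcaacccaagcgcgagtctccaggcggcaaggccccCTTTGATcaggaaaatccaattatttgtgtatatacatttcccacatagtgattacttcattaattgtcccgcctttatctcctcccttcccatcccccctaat
The window of *Sp5* held 2 such matches, AACAAAG from base 222 to base 216 before the start and CTTTGAT from base 104 to base 98. The windows of *Nkd1*, *Nkd2*, *Kremen2* and *Rnf43* held 0. Of 32851 windows of this length in the table, 14.8% held at least 1 match. The study names GGGAA as the Ikaros core. The longer word TGGGAA was found on either strand 2 times for *Sp5* and 1 time for *Nkd2*, against 21.6% of all windows with a match. GGGAA alone was not searched, and windows without TGGGAA can hold it. The GC box GGGCGG occurred 2 times for *Kremen2* (32.7% of all windows), and the E-box CACGTG was in none of the 6 windows (6.02% of all windows). These matches describe letters only, and the RefSeq start of *Nkd1* lies inside the gene as GENCODE annotates it.

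Gene positions are those of GENCODE M21 on GRCm38. The Naked genes were the pair of relatives in which both genes were above the limit. *Nkd1* (ENSMUSG00000031661, chromosome 8, 88521354 to 88594884, plus strand) had rlog values of 5.19, 5.45 and 5.21 in control samples 1, 2 and 3 and of 10.71, 10.71 and 10.75 in treated samples 14A, 14B and 15. The groups were far apart, and the treated samples differed from each other by less than the controls did. The control mean was 5.28 ± 0.14 and the treated mean 10.72 ± 0.020 (SD, n = 3 each). The log2 difference was 5.44 (95% interval 5.24 to 5.65, adjusted p = 1.64e-08, limma with Benjamini-Hochberg adjustment over 11536 genes). *Nkd2* (ENSMUSG00000021567, chromosome 13, 73818534 to 73847631, minus strand) was the more abundant of the pair in control cells, at 7.55, 7.75 and 7.58, and reached 9.05, 8.95 and 8.96 with LY2090314. Its treated samples also lay above each control. The log2 difference of *Nkd2* was 1.36 (95% interval 1.17 to 1.54, adjusted p = 6.15e-06, limma), a 2.56-fold rise.

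Within each sample, the value of *Nkd1* minus that of *Nkd2* moved from −2.35 ± 0.039 in control cells to 1.74 ± 0.069 in treated cells (SD, n = 3 each). The responses of the 2 genes thus differed by 4.08 on the log2 scale, or 16.9-fold. An exact two-sided permutation test over samples gave p = 0.10, which is the lowest possible for groups of 3, and 0.10 after Benjamini-Hochberg adjustment over the 3 pairs of relatives compared.

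*Kremen1* (ENSMUSG00000020393, chromosome 11, 5191552 to 5261558, minus strand), which encodes a Dickkopf receptor, stood at 9.30, 9.33 and 9.30 in the control samples. It reached 12.77 in treated samples 14A and 14B and 12.51 in treated sample 15. Control samples were nearly identical, and treated sample 15 was the lowest of its group. The log2 difference was 3.38 (95% interval 3.20 to 3.55, adjusted p = 3.96e-08, limma), a 10.4-fold rise. Its relative *Kremen2* (ENSMUSG00000040680, chromosome 17, 23741197 to 23745833, minus strand) had a mean of −2.28 in both groups, with a range of 0.0026 over the 6 samples. *Kremen2* was therefore not tested. The difference between *Kremen1* and *Kremen2* within a sample grew by 3.38 on the log2 scale (exact two-sided permutation p = 0.10, the lowest possible, adjusted p = 0.10 over the 3 pairs). This is the rise of *Kremen1* itself.

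*Znrf3* and *Rnf43* encode the ligases that clear Frizzled. *Znrf3* (ENSMUSG00000041961, chromosome 11, 5276324 to 5444847, minus strand) had values of 8.97, 9.04 and 8.90 in control and of 10.51, 10.47 and 10.36 in treated samples. The groups did not overlap, and the spread within each was similar (SD 0.070 and 0.082, n = 3 each). The log2 difference was 1.47 (95% interval 1.33 to 1.62, adjusted p = 1.34e-06, limma), a 2.78-fold rise. *Rnf43* (ENSMUSG00000034177, chromosome 11, 87662722 to 87735539, plus strand) had a mean of −1.49 in control and −1.46 in treated cells, all within 0.080 of each other, and was not tested. The within-sample difference between *Znrf3* and *Rnf43* grew by 1.45 (exact two-sided permutation p = 0.10, the lowest possible, adjusted p = 0.10 over the 3 pairs). This restates the rise of *Znrf3*, since *Rnf43* lies where rlog values hardly move.

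*Lgr5* (ENSMUSG00000020140, chromosome 10, 115450311 to 115587780, minus strand), the R-spondin receptor, was the member that fell. Its values were 6.22, 5.99 and 5.97 in control and 4.55, 4.70 and 4.59 in treated samples. The highest treated sample was below the lowest control. *Lgr5* fell by 1.44 on the log2 scale (95% interval −1.68 to −1.21, adjusted p = 1.72e-05, limma). Among its relatives, which bind the same ligands, *Lgr4* went from 6.80 ± 0.12 to 6.27 ± 0.13 (SD, n = 3 each) and fell by 0.53 (adjusted p = 0.0044, limma), whereas *Lgr6* had a mean of −2.12 in both groups. All 4 R-spondin genes, *Rspo1* to *Rspo4*, were listed at 0 in each of the 6 samples. In the deposited values, 21786 genes are at exactly 0 in all 12 columns. Here and below, this 0 is not read as a level above the negative values of genes such as *Lgr6*.

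*Apcdd1* (ENSMUSG00000071847, chromosome 18, 62922231 to 62961179, plus strand) had the lowest mean rlog value over the 6 samples among the members that passed the limit. It had values of 3.83, 3.99 and 3.73 in control and of 4.90, 4.60 and 4.49 in treated samples, and the groups did not overlap. The spread among treated samples was wider than for the other members (SD 0.21, n = 3). The log2 difference was 0.81 (95% interval 0.52 to 1.10, adjusted p = 0.0011, limma), which is under a log2 difference of 1.

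*Notum* and *Sp5* complete the list. *Notum* (ENSMUSG00000042988, chromosome 11, 120653788 to 120661175, minus strand) had a mean of −2.12 in both groups, with a range of 0.0011 over the 6 samples. *Sp5* (ENSMUSG00000075304, chromosome 2, 70474923 to 70477729, plus strand) stood at 0.88 in each control sample and at 1.10, 0.99 and 1.03 in treated samples 14A, 14B and 15. The treated samples were all higher, by a mean of 0.16, on a part of the scale where few reads stand behind a value. *Sp5* was not tested in the main comparison, and in a fit without a limit on the mean its adjusted p was 0.016 (limma). For *Kremen2*, *Rnf43* and *Notum*, that fit gave adjusted p values of 0.60, 0.43 and 0.53. At this depth, which the log values do not reveal, a change of these 3 genes was not detectable.

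**Figure D2:**
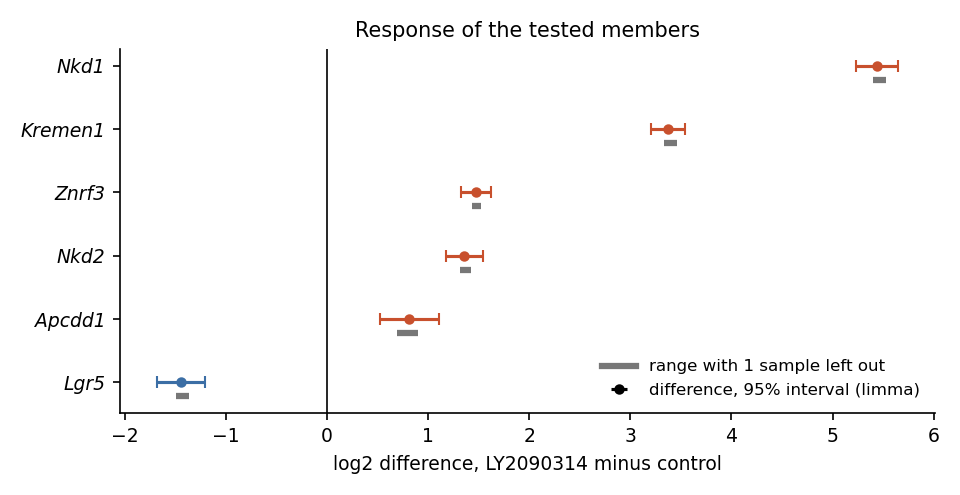
Log2 difference between LY2090314-treated and control ERT2 cells (horizontal axis) for the 6 members tested, with the 95% interval from limma and, as a gray bar, the range when 1 of the 6 samples is left out. *Nkd1* at 5.44 and *Kremen1* at 3.38 stand apart from *Znrf3*, *Nkd2* and *Apcdd1*, and *Lgr5* at −1.44 lies on the other side of 0.

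Of the 6 members tested, 5 were higher and 1 was lower at an adjusted p under 0.05. This has to be read against a response that reached much of the transcriptome, in which 50.1% of the 11536 genes passed the same threshold, 24.8% higher and 25.3% lower in treated cells. The treated and control samples did not overlap for the 6 members, as for 58.6% of all genes tested. A log2 rise of at least 1 with an adjusted p under 0.05 was found for *Nkd1*, *Kremen1*, *Znrf3* and *Nkd2*, against 4.14% of all genes tested, and a fall of at least 1 for *Lgr5*, against 1.86%. The median difference of the 6 was 1.42, and that of all genes tested was 0.012. Ordered by rise among the 11536 genes, *Nkd1* was number 1, *Kremen1* number 25, *Znrf3* number 239, *Nkd2* number 290 and *Apcdd1* number 691, and *Lgr5* was number 72 in the order of falls.

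**Figure D3:**
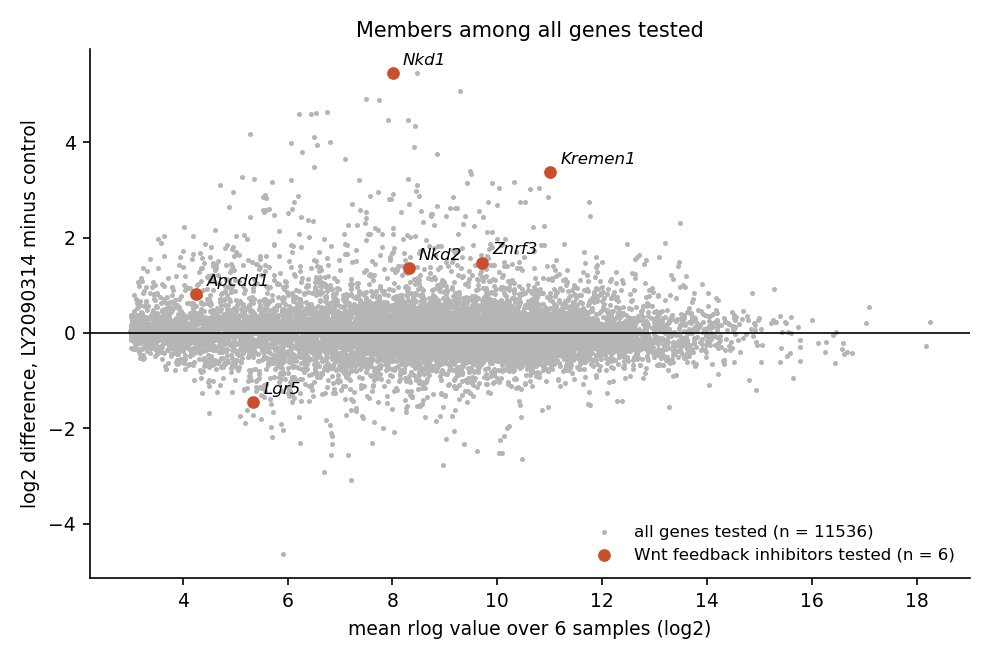
Mean rlog value over the 6 samples (horizontal axis, log2 scale) against the log2 difference between treated and control cells (vertical axis) for the 11536 genes tested (gray) and the 6 members tested (red). *Nkd1* lies at the upper edge of all genes, *Kremen1* is high at a larger mean level, and *Apcdd1* and *Lgr5* have the lowest mean levels of the 6.

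Levels of different genes can be compared only per length, so the log2 of the merged exon length in kb was subtracted from each rlog value. On this scale of level per kb, *Kremen1* was the highest in control cells, at 6.36 ± 0.014, followed by *Znrf3* at 5.99 ± 0.070 and *Nkd2* at 5.36 ± 0.11 (SD, n = 3 each). *Nkd1* at 3.09 ± 0.14 and *Lgr5* at 2.697 ± 0.14 came next, and *Apcdd1* was last at 0.16 ± 0.13. With LY2090314 the order changed in 1 respect above all, as *Nkd1* moved past *Nkd2* and *Znrf3* to the second place. The treated levels per kb were 9.74 ± 0.15 for *Kremen1*, 8.53 ± 0.020 for *Nkd1*, 7.46 ± 0.082 for *Znrf3* and 6.72 ± 0.056 for *Nkd2*. *Lgr5* at 1.25 ± 0.079 and *Apcdd1* at 0.98 ± 0.21 were neighbors that hardly differed beyond their spread on this length. When the longest coding transcript was used for the length instead, *Lgr5* (3.82) preceded *Nkd1* (3.25) in control cells, so the order of this pair depends on the transcript length. The order in treated cells stayed as given, but *Lgr5* (2.38) and *Apcdd1* (1.22) were then farther apart than their spread.

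**Figure D4:**
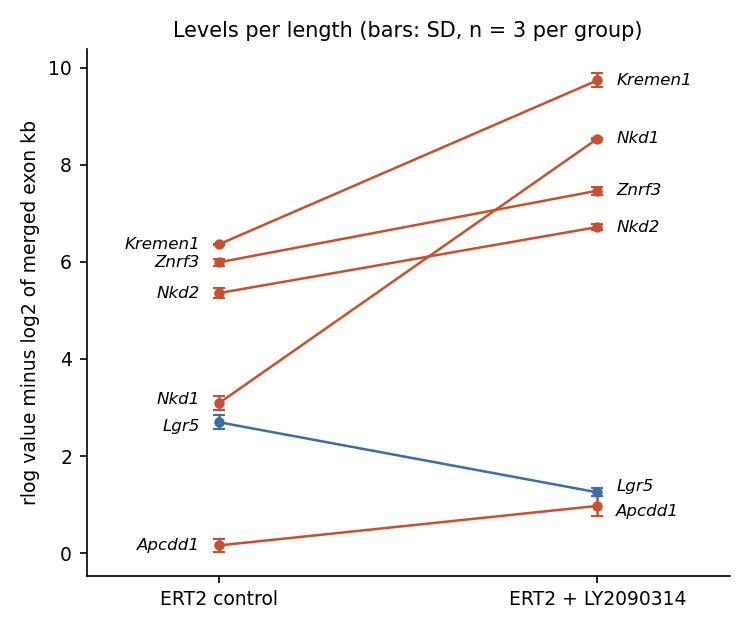
Level per kb (rlog value minus the log2 of the merged exon length in kb, vertical axis) of the 6 tested members in control and treated ERT2 cells, as group means with SD bars (n = 3 each). The line of *Nkd1* rises from 3.09 to 8.53 and crosses those of *Nkd2* and *Znrf3*, and the line of *Lgr5* is the one that descends.

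The treated samples resembled each other across the members. The root mean square difference over the 6 tested members was 0.14 between treated samples 14A and 14B. It was 0.21 between 14A and 15 and 0.13 between 14B and 15. Among control samples it was 0.12 to 0.18, and between a control and a treated sample it was 2.697 to 2.92. Over all genes tested, the SD of the difference was 0.19 between 14A and 14B and 0.25 between each of these and sample 15. Among control samples this SD was 0.19 to 0.24. With 14A and 14B averaged to 1 sample, the 6 members passed the threshold as before.

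The other genes of the pathway were described from lists written by function. The counts below have to be read against 24.8% higher and 25.3% lower among all genes tested. In the list of intracellular feedback genes and reference targets of β-catenin, 10 of 13 genes were tested, of which 8 were higher, 0 were lower and 2 did not pass, with a median log2 difference of 0.82. *Tcf7*, which encodes a TCF factor, was at 7.95, 7.83 and 7.99 in control and at 10.51, 10.52 and 10.61 in treated samples, and rose by 2.62 (adjusted p = 7.67e-08, limma). *Axin2*, the scaffold of the β-catenin destruction complex that serves as a common readout of Wnt signaling, rose by 1.67, from 6.31 ± 0.15 to 7.97 ± 0.14 (SD, n = 3 each). *Tnfrsf19*, a receptor of the TNF family, rose by 1.44. The 95% intervals of *Nkd1* and *Kremen1* lay above that of *Axin2*, which ended at 1.93, whereas that of *Znrf3* overlapped it, and these differences between genes were not tested. *Ccnd1* (difference 0.27) and *Btrc* (difference 0.043) were those that did not pass.

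Among 16 other secreted Wnt antagonists, 12 were under the limit, of which 7 were listed at 0 in each of the 6 samples. The other 4 were tested, with 2 higher and 2 lower. *Igfbp4*, a secreted binding protein of insulin-like growth factors that can also block Wnt receptors, had values of 9.71, 9.65 and 9.77 in control and of 11.26, 11.16 and 11.51 in treated samples. It rose by 1.60 (adjusted p = 4.35e-06, limma). *Sfrp2*, a secreted Frizzled-related protein, went from 2.83 to 3.71, and it passed the limit on the mean only through its treated values. The Dickkopf-related genes *Dkk3* (difference −0.55) and *Dkkl1* (difference −0.66) fell, and of the other Dickkopf genes *Dkk1* was under the limit and *Dkk2* and *Dkk4* were listed at 0.

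Of 15 other membrane and extracellular modulators, 4 were tested, and *Lgr4* was the 1 that changed. *Bambi*, a pseudoreceptor of the TGF-β pathway, was at 5.92 ± 0.15 in control and 5.87 ± 0.066 in treated cells (SD, n = 3 each). Without the limit on the mean, 5 genes of this list passed, 3 higher and 2 lower. Of 15 Wnt receptors, 7 were tested, with 2 higher, 2 lower and 3 that did not pass. One of the higher calls, *Fzd6* (difference 0.25, adjusted p = 0.030, limma), was lost under quantile normalization. *Fzd7*, which encodes a receptor of the Frizzled family that Znrf3 acts on, was at 6.79, 6.93 and 6.87 in control and at 5.60, 5.66 and 5.54 in treated samples. It fell by 1.26 (adjusted p = 1.42e-05, limma). *Fzd9* fell by 1.17, and *Ryk*, a receptor related to tyrosine kinases, rose by 1.09. The co-receptor genes *Lrp5* (8.30 and 8.27) and *Lrp6* (10.65 and 10.85) had control and treated means that did not pass the test. The 3 Dishevelled genes, whose products Naked proteins bind, did not pass either, with differences of −0.043 for *Dvl1*, 0.12 for *Dvl2* and 0.24 for *Dvl3*. Of the 8 other Sp family genes, 4 were tested, with *Sp2* higher by 0.22 and *Sp4* lower by 0.26. The control and treated samples of *Sp4* overlapped. Its adjusted p was 0.048 (limma), and 0.11 in the fit without the limit on the mean. *Wls*, which carries lipid-modified Wnt ligands to the surface, fell by 0.36, and *Porcn*, the enzyme that adds the lipid, had a mean of 0.15 in both groups.

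**Figure D5:**
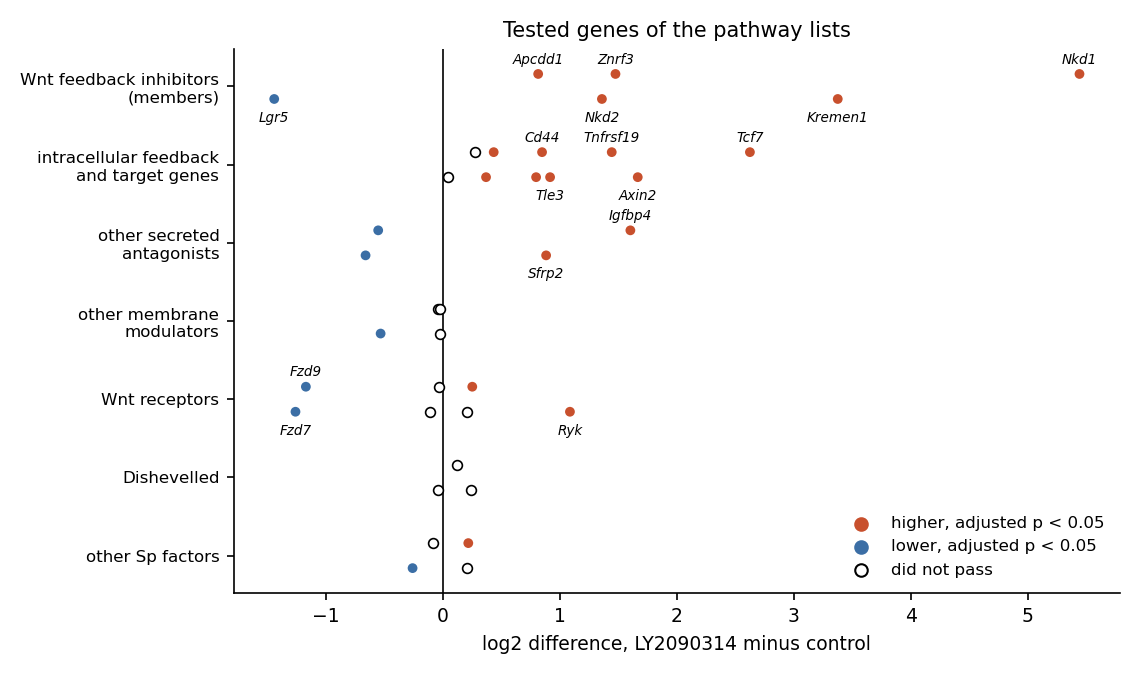
Log2 difference between treated and control ERT2 cells (horizontal axis) for the tested genes of 7 lists (rows), with filled points for an adjusted p under 0.05 and open points for genes that did not pass. The members and the intracellular feedback and target genes lie mostly to the right of 0, while Wnt receptors and other secreted antagonists lie on both sides.

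Genes whose profile over the 6 samples came closest to that of a member were found by the root mean square distance between values centered on the mean of each gene, among 11535 genes. Since the samples form 2 groups, this mainly finds genes with a difference of like size. For *Nkd1* these were *Pcp4* (distance 0.054), *Slamf6* (0.19) and *Slc16a5* (0.28). *Pcp4* and *Nkd1* both rose by 5.44, so their order among all genes is not resolved. For *Kremen1* they were *Fbxl12* (distance 0.093), *Erc1* (0.11) and *Emid1* (0.12), which rose by 3.34, 3.29 and 3.41. For *Nkd2* they included *Rpl3l* and *Slamf7*, at distances of 0.049 and 0.055, and for *Znrf3* they were *Man2a1*, *Irf4* and *Spata13*, at distances of 0.046 to 0.052. The profile of *Lgr5* was closest to those of *Lrp4*, *Nlrc3* and *Themis2*, at distances of 0.094 to 0.096, and these fell by 1.39, 1.55 and 1.53.

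The identity of the cells was checked with marker genes. Beside their counts stand the 24.8% of all genes tested that were higher and the 25.3% that were lower. The 12 pre-B markers were all above the limit, and 10 were lower and 1 was higher with LY2090314, with a median log2 difference of −1.05. Their sum on the linear scale was between 82762 and 84314 in control and between 55322 and 61560 in treated samples. Of 8 myeloid markers, 2 were tested and both rose, *Ly6g* from 3.48 to 6.45 and *Lyz2* from 5.80 to 6.34. The sum of the 8 on the linear scale went from between 66.2 and 75.4 to between 167 and 175, almost all of it *Ly6g* and *Lyz2*. *Csf1r*, *Itgam* and *Cd14* were under the limit, and *Mpo*, *Elane* and *Adgre1* were listed at 0. Of 8 T cell markers, *Lck* rose by 0.95 and *Thy1* fell by 0.28, and *Cd3d*, *Cd3e*, *Cd3g*, *Cd4*, *Cd8a* and *Cd8b1* had means under 0. The T cell sum went from between 2644 and 2853 to between 4933 and 5843, almost all of it *Lck*. One of 8 erythroid markers, *Hbb-bt*, was tested and fell by 0.44, and none of the 8 stromal or 6 epithelial markers reached the limit. The part of these markers in the changes of the Wnt genes was not tested. *Ctnnb1*, which encodes β-catenin, was at 12.19 in control and 11.85 in treated cells. Its mRNA was abundant in both groups but lower with LY2090314 (difference −0.35, adjusted p = 0.00030, limma). *Gsk3b* differed by 0.13, with an adjusted p of 0.051 (limma). Exons of *Kremen2* and *Notum* overlap those of genes on the other strand, by 200 bases with *9530082P21Rik* for *Kremen2* and by 708 bases with *Notumos* for *Notum*, and the 6 tested members share 0 exon bases with another annotated gene.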

How the data were processed

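Poly(A) RNA was sequenced with a stranded paired-end kit. Per the labels and the study's methods, Salmon, STAR and DESeq2 1.30.1 were used with the GRCm38 genome, and the authors deposited log2 (rlog) values for 41444 genes. Which samples and options entered the transformation, and whether counting used strand, is not given in the sources used here. Since counts are not part of the table, sequencing depth and the precision it gives are unknown and no interval for counting error is given. Of 12 columns, 6 were matched to groups by name and 6 were not used.

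Identifiers were matched to symbols for 41157 genes, and positions come from GENCODE M21 of the same build. Genes with a mean of at least 3 entered a linear model in limma 3.58.1, run in R 4.3.3 (mean-variance trend, Benjamini-Hochberg adjustment over all genes tested, threshold 0.05), which gave the adjusted p-values. Within-sample differences between relatives were compared by exact permutation over 20 arrangements. The fit was tested on simulated data with known changes. P-values measure the spread between these samples, which may in part be technical.

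Named genes were the 10 members, *Axin2*, *Ctnnb1*, *Gsk3b*, up to 6 genes per pathway list with a log2 difference of at least 1 past the threshold, and the 3 nearest profiles of each such member, of which 1 is not reported here. Other list genes named were chosen after their values were seen. The members and lists were chosen with earlier results of these data known. Alternatives were the variance model, the limit on the mean, 2 scalings, left-out and averaged samples and 2 thresholds.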

Additional observations from a re-analysis of the deposited data

How the results depend on the processing

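The 6 tested members kept their direction and passed the threshold under each alternative in which they were tested, with 2 exceptions of construction: a limit of 5 on the mean left *Apcdd1* untested, and the additional requirement of a log2 difference of at least 1 removed it. With 1 of the 6 samples left out, the log2 difference was 5.40 to 5.52 for *Nkd1*, 3.33 to 3.46 for *Kremen1*, 0.70 to 0.90 for *Apcdd1* and −1.49 to −1.36 for *Lgr5*. The highest adjusted p over the alternatives was 0.0078, for *Apcdd1* (limma). The contrast between *Nkd1* and *Nkd2* was 4.06 to 4.12 with 1 sample left out. The number of genes past the threshold, 5778, fell to 693 with the additional requirement of a log2 difference of at least 1, and it was 4741 to 6225 with 1 sample left out. Without a limit on the mean, 19658 genes that varied were tested and 5356 passed. For the other membrane modulators 5 in place of 1 then passed, and for the other Sp genes 1 in place of 2. No paired analysis was possible because controls are numbered 1 to 3 and treated columns 14A, 14B and 15, with no number in common. The unknown depth limits what can be said of *Kremen2*, *Rnf43*, *Notum* and *Sp5*.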
